A study of Mus musculus with 2 samples.

Results

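Isolated wide FoxO3 peaks are single sites of FoxO3 enrichment in myotubes, 300 bp or more wide, that lie over 12 kb from any other listed peak of the same cells. They were chosen by position and width in the myotube peak list. Peaks were joined when the gap to the next peak was at most 12000 bp, and clusters of a single peak with a width of 300 bp or more were kept. The rule gave 1640 members, which is 11.8% of the 13876 isolated peaks and 3.61% of the 45457 peaks of the list. The other 12236 isolated peaks were narrower, and 5968 peaks of 300 bp or more lay in clusters.

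FoxO3 is a forkhead transcription factor that is kept in the cytoplasm by insulin and growth factor signalling through Akt and enters the nucleus when that signalling falls. In skeletal muscle it is known for driving atrophy and autophagy genes, and it has been linked to the control of MyoD. Binding sites packed close together are often discussed as super-enhancers, and the series title places FoxO3 and MyoD in that setting. A lone broad peak is the other extreme, a site with no listed neighbour in its surroundings.

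The cells were C2C12, a mouse myoblast line that fuses into multinucleated myotubes when serum is reduced. The series holds 1 chromatin immunoprecipitation sequencing (ChIP-seq) library from myoblasts at hour -24 relative to differentiation medium and 1 from myotubes at hour 72, with the same anti-Foxo3 antibody. Myoblasts were grown with fetal bovine serum and differentiation medium held horse serum, and no genotype or drug differed between the groups per the labels. With 1 library per group no value carries a replicate error, and no test between the conditions was made. Widths, folds and positions are the authors' own peak values on the mouse build mm9. Since width and position chose the members and the fold comes from the same reads, all values within the myotube list are given as descriptions with no test. Intervals in brackets are 95% intervals that cover counting error alone, by Wilson's method for shares and from order statistics for medians.

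The members were of moderate to high strength. Their median fold enrichment over the local background was 13.05 (12.59 to 13.5), with quartiles of 9.25 and 18.95 and a range from 2.26 to 109.72. Isolated peaks under 300 bp had a median fold of 8.59 (quartiles 6.88 and 11.2), the same as the 8.59 over all myotube peaks. A fold of 10 or more was reached by 1144 members (69.8%, 67.5% to 71.9%), where 35.4% of the whole list reached it. A fold of 20 or more was reached by 364 members (22.2%, 20.3% to 24.3%), where the share of the list was 5.88%. A fold of 50 or more was found at 21 members (1.28%), where the share of the list was 0.345%. A −log10 q-value of 10 or more was held by 1312 members (80.0%), where the share was 41.4% of the list and 39.3% of isolated narrow peaks.

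The number of reads stacked at each summit, the pileup, was recovered from the deposited fold and p-value. A member had a median of 29 reads at its summit (quartiles 21 and 42, range 9 to 479) over a median background of 2.07 reads. Isolated narrow peaks had 18 reads (quartiles 14 and 23) over a background of 2.02 reads. The members therefore had higher pileups over nearly the same background. The precision of a single fold is limited by these low read numbers.

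Width and fold were only loosely related within the members. Pearson's r was 0.16 and Spearman's rho 0.18 over the 1640 members, which share 1 library and 1 peak calling. The median fold went from 11.6 in the 700 members of 300 to under 350 bp to 13.05 at 350 to under 400 bp (405 members) and 14.0 at 400 to under 500 bp (336 members). It was 15.6 in the 118 members of 500 to under 600 bp and 17.7 in the 81 members of 600 to 1180 bp. The median width was 363 bp, with quartiles of 325 and 426 bp. At the width limit, the 26 members of exactly 300 bp had a median fold of 10.5 (range 4.7 to 30.46). The 22 isolated peaks that were 1 bp narrower, just outside the rule, had 12.2 (range 5.32 to 27.76).

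**Figure D1:**
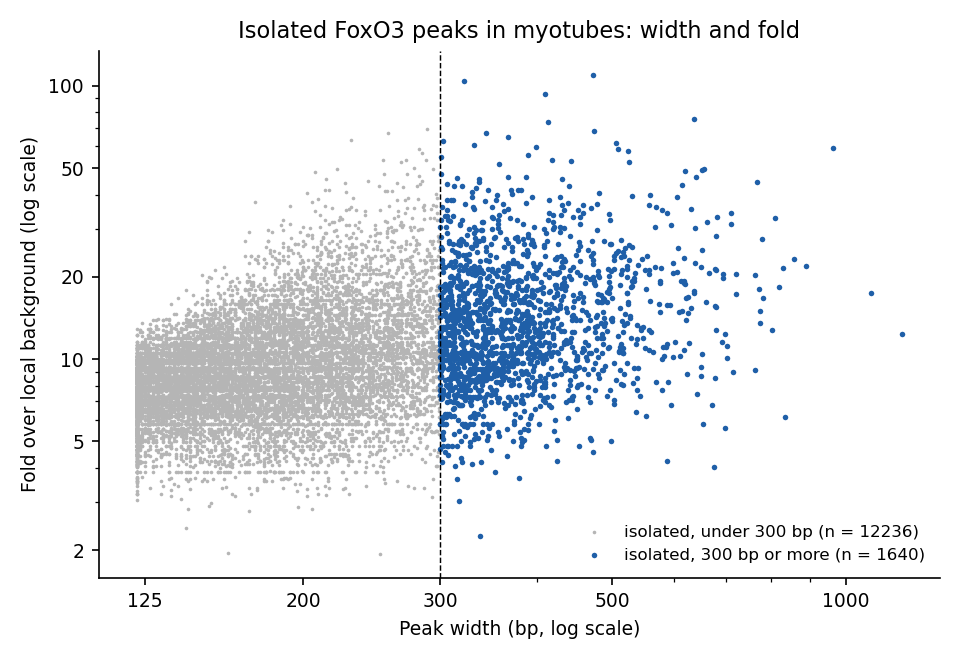
Fold over local background (vertical, log scale) against width in bp (horizontal, log scale) for isolated myotube peaks, 1 point per peak, with the 12236 narrow peaks in grey and the 1640 members in blue. The dashed line is the 300 bp limit; the members spread from a fold of 2.26 to 109.72 with little tie to width, and the narrowest peaks stay below the folds of the strongest members.

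Among wide peaks, the isolated ones resembled those in small clusters in fold. The median fold was 13.05 for the 1640 isolated wide peaks, 13.0 for the 1352 wide peaks in clusters of 2 and 13.2 for the 3027 in clusters of 3 to 9. It was 10.8 for the 591 wide peaks in clusters of 10 to 19 and 9.19 for the 998 in clusters of 20 or more. A fold of 20 or more was reached by 22.2% of the isolated wide peaks and by 1.70% (1.07% to 2.71%) of the wide peaks in clusters of 20 or more. The low folds of the dense clusters were thus also found at peaks of the members' width, and wide peaks with 1 to 8 close neighbours differed little in fold from those with none. Clusters of 20 or more had the lowest median in each width class: at 300 to under 350 bp the medians were 11.6 for isolated peaks, 11.6 in clusters of 2 to 9 and 8.59 in clusters of 20 or more. At the limit of 12 kb, the 11 wide peaks whose nearest gap was over it by at most 100 bp had a median fold of 16.1, and the 12 wide peaks under it by less than 100 bp had 13.5.

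**Figure D2:**
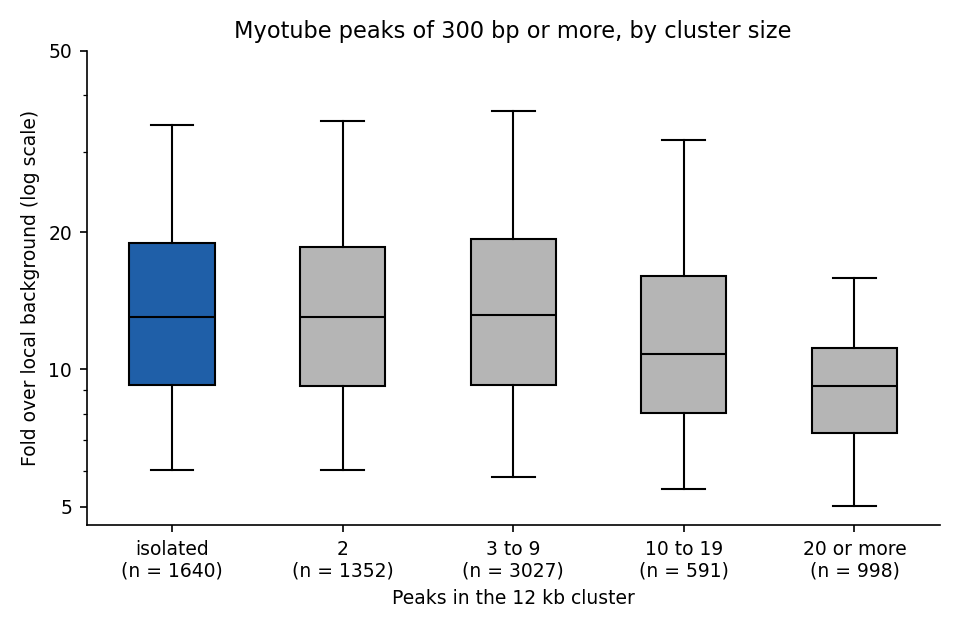
Fold over local background (log scale) of myotube peaks of 300 bp or more, by the number of peaks in their 12 kb cluster; boxes show the median and quartiles and whiskers the 5th and 95th percentiles. The isolated peaks in blue (median 13.05) sit level with clusters of 2 and of 3 to 9, and the box for clusters of 20 or more is lower (median 9.19).

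Most of the strongest peaks in the list were not members. Of the 2674 myotube peaks with a fold of 20 or more, 364 were members (13.6%). Of the 815 with a fold of 30 or more, 127 were members (15.6%, 13.3% to 18.2%), and of the 157 with a fold of 50 or more, 21 were (13.4%, 8.92% to 19.6%). The members held 16 of the 100 peaks of highest fold and 2 of the top 10. Their share thus stayed between 13.4% and 15.9% at the fold limits from 20 to 60, against 3.61% of the list. This was not particular to lone sites, since wide peaks in clusters held 100 of the 157 peaks with a fold of 50 or more. Such a fold was reached by 1.68% (1.38% to 2.03%) of wide peaks in clusters and by 1.28% (0.839% to 1.95%) of members.

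The strongest lone site lay on chromosome X at chrX:100145494-100145966 and ranked 2 in the whole list by fold. It was 473 bp wide with a fold of 109.72, from 166 reads over a background of 1.51. Its summit lay almost at the centre, at 0.50 of the width. The nearest other peaks were 473 kb to the left (fold 9.02) and 490 kb to the right (fold 9.25), so this was the member among the 20 strongest that had 0 other peaks within 100 kb. A further X-linked member, chrX:72919205-72919842, ranked the fourth among members with a fold of 75.45 over 638 bp. Its pileup was 119 reads and its nearest neighbour lay 90.04 kb away.

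The strongest autosomal members were chr5:66735466-66735787 and chr10:84577117-84577525. The first was 322 bp wide with a fold of 103.77 (157 reads over 1.51) and had flanking peaks of fold 6.45 and 10.57 at 20.3 and 20.5 kb. The second was 409 bp wide with a fold of 93.47 (171 reads over 1.83), and its nearest peak lay 13.2 kb away with a fold of 14.79. Both were thus far above their flanking peaks in fold, although the flanks of the second (10.96 and 14.79) were above the list's median of 8.59. On chromosome 15, chr15:88781773-88782185 had a fold of 73.50 (134 reads) and chr15:66850839-66851205 a fold of 65.20 (174 reads). On chromosome 13, chr13:67584922-67585395 had a fold of 68.21. Its left neighbour, a peak of fold 49.67 at a distance of 32.2 kb, was the strongest flanking peak of the 20 strongest members.

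The next members by fold were chr5:86673993-86674336 at 67.06, chr10:24108080-24108382 at 62.88, chr18:55799805-55800310 at 61.76 and chr19:7081662-7081993 at 60.59. They were followed by chr14:27692031-27692429 at 59.48, chr19:7681988-7682949 at 59.20 and chr5:44374082-44374590 at 58.82. The last 6 of the 20 strongest lay between 57.70 and 52.60, with 2 each on chromosomes 9 and 1 (chr9:13976207-13976730, chr9:57718317-57718617, chr1:164439451-164439840 and chr1:66928312-66928729) and 1 each on chromosomes 11 and 2 (chr11:121249599-121250040 and chr2:45603422-45603947). Among these, the site at chr1:164439451-164439840 had the highest pileup of the 20, 202 reads, with a fold of 55.81 because its background was 3.62 reads. The 20 sites were spread over 12 chromosomes, and 0 of them overlapped a myoblast peak. Only 0.224% of the whole list did, and 0.449% of its peaks with a fold of 20 or more, so 0 of 20 is not read as a difference. The nearest myoblast summit to any of the 20 sites was 437 kb away. Over the whole list the median distance to a myoblast summit was 1.39e+06 bp.

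These 20 sites were somewhat wider than the members as a whole and about as close to their neighbours. Their widths ran from 301 to 962 bp with a median of 416 bp, against 363 bp for all members. Their nearest neighbours lay 13.2 to 473 kb away with a median of 21.6 kb, against 24.2 kb for all members. The median number of other peaks within 100 kb was 5.5 (range 0 to 19), against 5 for all members. The peaks flanking them had a median fold of 8.96, and 3 of the 20 had a flanking peak with a fold of 20 or more. Their summits lay in the middle 50% of the peak at 19 of the 20. The exception was chr19:7681988-7682949, the third widest member, whose summit lay at 0.78 of its 962 bp.

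Every chromosome with listed peaks except the mitochondrial genome held members, and the strongest one differed in height between chromosomes. Chromosomes outside the top 20 had their strongest member at chr4:34398656-34399311 (fold 49.64), chr12:101963436-101963736 (47.59), chr6:91496104-91496745 (46.27) and chr3:94453164-94453500 (45.45). Lower still were chr17:29546693-29547308 (43.29), chr8:36215717-36216050 (42.30), chr16:49909723-49910077 (39.90) and chr7:72932576-72933044 (35.69). The strongest member of each chromosome thus had a fold between 35.69 and 109.72, and chromosome 7 had the lowest of them.

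Members often stood above their flanking peaks. Of the 1638 members with a peak on each side, 924 (56.4%, 54.0% to 58.8%) had a higher fold than both flanks and 250 (15.3%) a lower fold than both. For isolated narrow peaks the shares were 30.4% and 35.0%. The flanking peaks had the same median fold, 8.90, in each case. A fold at least 2 times that of the higher flank was found at 302 of the 1638 members and at 491 of 12211 isolated narrow peaks. The comparison with flanks was not made for the whole list. These shares follow from the folds of the members given above and are not independent of them.

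Isolation went far beyond the joining distance at some members. The gap to the nearest other peak exceeded 25 kb at 775 members (47.3%), 50 kb at 336 (20.5%), 100 kb at 108 (6.59%, 5.48% to 7.89%) and 500 kb at 10. Isolated narrow peaks had no other peak within 100 kb more often, at 10.8% (10.2% to 11.3%). The median fold was 13.05 for all members and 11.6 for the 108 beyond 100 kb, with overlapping quartiles (9.25 to 18.95 and 9.22 to 16.2). Fold and gap were nearly unrelated, with Spearman's rho of -0.04 and Pearson's r of -0.0028 over the 1640 members.

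The 5 most remote members lay in long stretches with no other listed peak. At chr4:68235673-68236010 the nearest peak was 1679758 bp away, and the member had a fold of 10.31 from 16 reads. At chr7:114807788-114808128 the nearest peak was 1269492 bp away, with a fold of 20.63 from 32 reads. The 2 remote members of chromosome 3, chr3:42557063-42557374 and chr3:39168251-39168591, had folds of 8.90 and 8.72 and gaps of 1146742 and 635698 bp. At chr1:149880979-149881351 the fold was 23.10 from 51 reads and the gap 637794 bp. These remote sites were near or above the list's median fold of 8.59, and their widths, from 312 to 373 bp, were close to the median of the members.

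Summits lay in the outer 25% of either side at 337 of the 1640 members (20.5%, 18.7% to 22.6%), and at 12.2% of isolated narrow peaks. Wide peaks in clusters of 2 and of 3 to 9 were close to the members, at 19.5% and 20.3%. The median summit position was 0.50 of the width (0.479 to 0.519), with quartiles of 0.339 and 0.667, so the 2 sides were nearly balanced: 814 summits (49.6%, 47.2% to 52.1%) lay to the right of the centre. Isolated narrow peaks had closer quartiles, 0.390 and 0.582. In bp, a member's summit lay a median of 58.5 from its centre, against 16 in isolated narrow peaks. The 2 sets were split by width, so a larger distance in the members follows in part from the rule. Wide peaks in clusters of 2 and of 3 to 9 had medians of 58 and 62 bp.

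Measured from the nearer edge, the summits piled up just under 122 bp. The most frequent distance was 121 bp, and 550 members (33.5%, 31.3% to 35.9%) had a summit 100 to 121 bp inside an edge. In the adjoining bands of the same size there were 248 (15.1%) at 78 to 99 bp and 182 (11.1%, 9.67% to 12.7%) at 122 to 143 bp, with 235 (14.3%) at 144 to 165 bp. The distances reached 391 bp, with an upper quartile of 153 bp. The smallest width in the myotube list is 122 bp, so 33.5% of the members had their summit just under 1 smallest peak width from an edge. The bands were chosen after the values had been seen. The drop past 121 bp was present in each width class, from 41.1% to 13.6% at 300 to under 350 bp and from 21.6% to 7.54% at 500 bp or more. It was also present in wide peaks of clusters of 2 to 9 (30.3% to 11.5%), so it is not particular to lone sites. Whether the calling sets this distance was not tested.

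Off-centre summits were more frequent in the wider members. A summit in the outer 25% of either side of the peak was found in 12.9% (10.6% to 15.5%) of members of 300 to under 350 bp, 17.0% at 350 to under 400 bp and 28.0% at 400 to under 500 bp. The share was 38.1% (29.9% to 47.1%) at 500 to under 600 bp and 48.1% (37.6% to 58.9%) at 600 bp or more. A distance near 121 bp falls in the outer 25% only where the peak is wide, so these shares are tied to the edge distances above. Wide peaks in clusters of 20 or more had such summits more often in the classes below 500 bp: 36.3% (31.3% to 41.7%) at 300 to under 350 bp, against 12.9% of the members. The shares were 46.0% against 17.0% at 350 to under 400 bp and 52.2% against 28.0% at 400 to under 500 bp. At 500 bp or more the shares were closer, 47.6% (41.3% to 54.0%) against 42.2% (35.6% to 49.2%), with overlapping intervals. Wide peaks in clusters of 2 to 9 were near the members below 500 bp, at 14.2%, 16.8% and 25.2% in the same classes. At 500 bp or more they had 31.4% (28.0% to 35.1%), below the 42.2% of the members. The rise with width was thus not particular to lone sites.

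**Figure D3:**
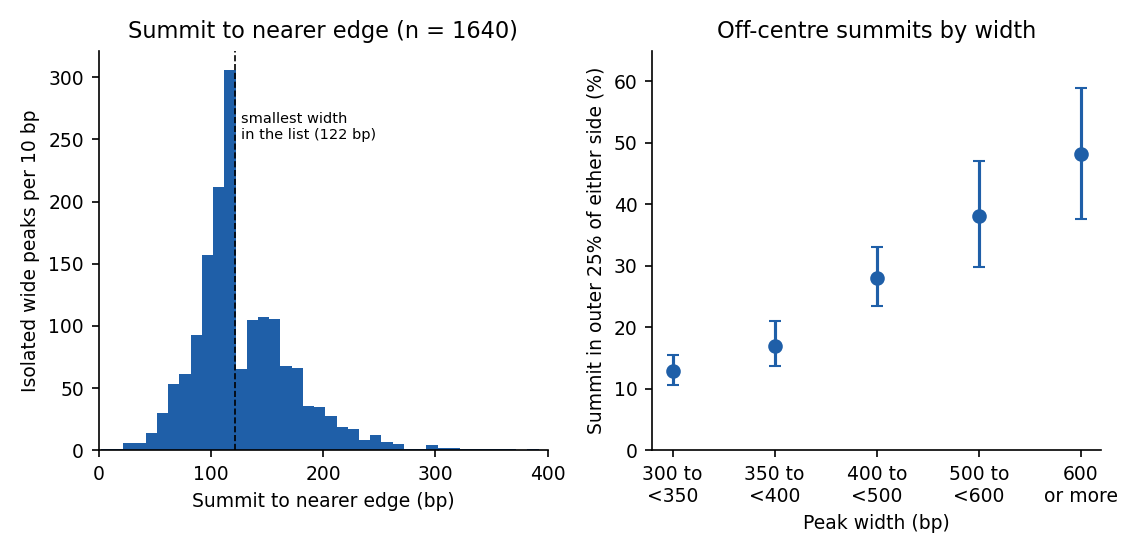
Left, the number of members per 10 bp of distance from the summit to the nearer edge of the peak, with a dashed line at the smallest width in the list, 122 bp. Right, the share of members (points, with Wilson 95% intervals) whose summit lies in the outer 25% of either side, by width class in bp. Counts climb to the dashed line and drop past it, and the share climbs from 12.9% to 48.1% with width.

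The 5 widest members showed this asymmetry. The widest, chr18:35181573-35182752, spanned 1180 bp with a fold of 12.33 (35 reads) and a summit at 0.10 of its width. It was followed by chr13:100093257-100094334 with 1078 bp, a fold of 17.40 and a summit at 0.80. The 962 bp site on chromosome 19 has been described. Next were chr10:80376415-80377304 with 890 bp, a fold of 21.92 and a summit at 0.87, and chr16:24788579-24789435 with 857 bp, a fold of 23.21 and a summit at 0.80. All 5 summits lay in the outer 25% of a side.

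Members were found on all 19 autosomes and X. There were 0.64 members per Mb of the span covered by peaks, from 0.249 on chromosome X (40 members) to 0.898 on chromosome 15 (90 members). The chromosomes with the most members were 1 (122), 2 (119) and 10 (110). The share of isolated peaks that were wide varied little, from 9.87% on chromosome 19 (7.24% to 13.3%) to 14.8% on chromosome 15 (12.2% to 17.8%). Chromosome X was near the middle of that range, at 11.1% (8.27% to 14.8%).

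Chromosome X had few members, but its wide peaks were more often lone than those of the autosomes (40 of 93, 43.0%, 33.4% to 53.2%, against 1600 of 7512, 21.3%, 20.4% to 22.2%). It held 2.44% (1.80% to 3.30%) of the members and 2.62% (2.35% to 2.91%) of the isolated narrow peaks. Its share was 0.888% (0.680% to 1.16%) of the wide peaks in clusters and 1.70% of the whole list. Being lone was not particular to wide X peaks: 360 of all 774 X peaks were isolated, against 13876 of 45457 in the whole list. The median gap to the nearest peak was 46.8 kb for X members and 23.8 kb for autosomal ones. The part of peak density in the lone share was not tested. Their folds had a median of 13.6 (quartiles 10.1 and 20.7), against 13.05 (9.25 and 18.8) on the autosomes. The background was at the floor, the most frequent value in the list (1.51 reads), at 18 of the 40 X members (45.0%, 30.7% to 60.2%). On the autosomes this held for 237 of 1600 (14.8%, 13.2% to 16.6%). The low background was not particular to the members. All 774 peaks of chromosome X had a median background of 1.51 reads, the lowest of the 20 chromosomes. A lower background gives a higher fold for the same pileup, and the X members had a median pileup of 25.5 reads against 29 on the autosomes.

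Chromosome 15 stood apart in background and pileup. Its 90 members had a median background of 3.10 reads (quartiles 2.59 and 4.62), where the medians of the other 19 chromosomes ran from 1.55 to 2.52. Their median pileup was 39.5 reads, where the other chromosomes ran from 25 to 32. The median fold was 11.2, the lowest of any chromosome, although the next, chromosome 18, was close at 11.3. Background was raised, which means over 3 times the floor, at 24 of the 90 members (26.7%, 18.6% to 36.6%), against 52 of the 1550 on other chromosomes (3.35%, 2.57% to 4.37%). A fold of 20 or more was reached by 8 of the 90 (8.89%, 4.57% to 16.6%), against 356 of 1550 elsewhere (23.0%, 20.9% to 25.1%). Members of chromosome 15 thus combined more reads at the summit with a lower fold. The lower fold was not particular to them: all peaks of chromosome 15 had a median fold of 7.28, where the other chromosomes ran from 8.38 to 9.19, and 2.99% of them reached a fold of 20, against 5.88% of the list.

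The raised level on chromosome 15 ran along its whole length. In 10 Mb windows with 20 or more myotube peaks, the median background of the peaks was 2.60 to 3.47 reads in the 11 windows of chromosome 15. It was 1.51 to 2.58 in the 251 windows of the other chromosomes, so each window of chromosome 15 was above the highest of them. In the myoblast list, which the rule did not use, the 23 peaks of chromosome 15 had a median background of 0.566 reads. The medians of the other autosomes and X ran from 0.444 to 0.508 there, except chromosome 9, where the 15 listed peaks had a median of 16.1. The myoblast quartiles of chromosome 15, 0.487 and 0.857, overlapped those of other chromosomes, such as 0.444 and 0.860 on chromosome 2. The part of the background in the folds of the chromosome 15 members was not tested.

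**Figure D4:**
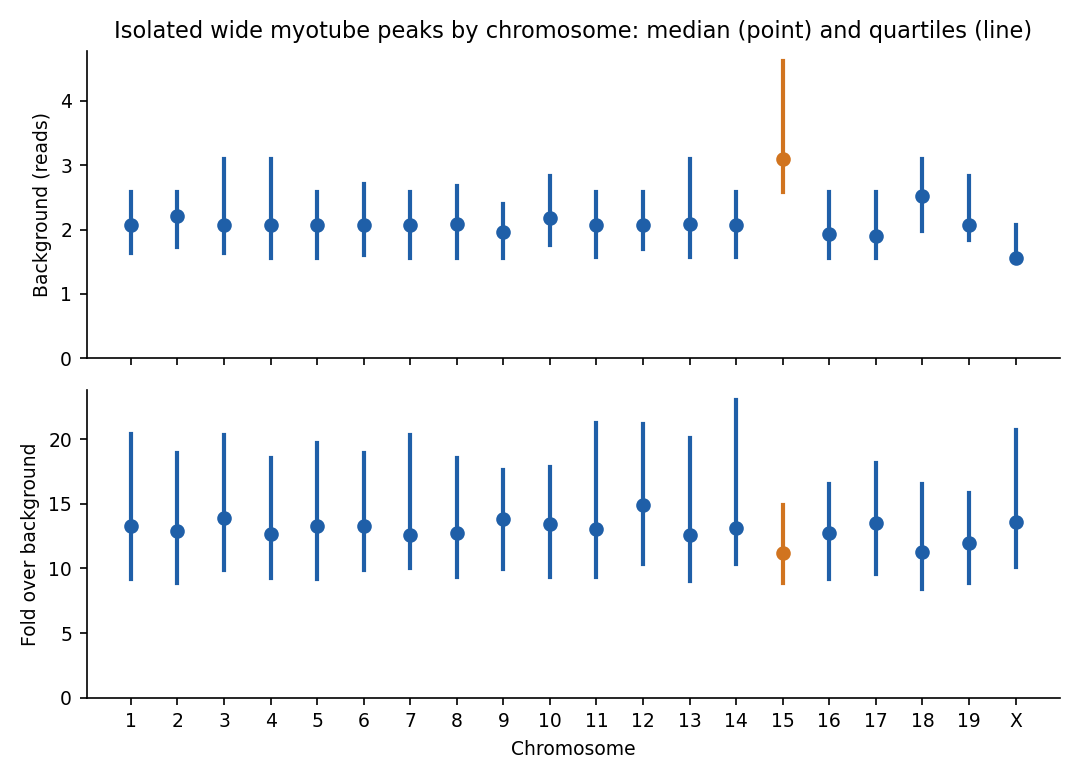
Background in reads (top) and fold over background (bottom) of the isolated wide peaks on each chromosome; points are medians and lines run between the quartiles. Chromosome 15, in orange, has the highest median background (3.10 reads) and the lowest median fold (11.2), and chromosome X has the lowest median background (1.55 reads).

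The myoblast list gave an independent view of the members. Of the 1640 members, 8 overlapped a myoblast peak by at least 1 bp (0.488%, 0.247% to 0.960%), where 0.224% of the whole myotube list did. The share was 0.204% (0.138% to 0.301%) in isolated narrow peaks and 0.452% (0.311% to 0.657%) in wide peaks of clusters. The lower bound of the members' interval, 0.247%, was just above the share of the whole list, and the intervals of members and of isolated narrow peaks overlapped. The value rested on few sites and on the overlap rule. With 50% of both peaks required it was 0.244% (0.0949% to 0.625%). A myoblast summit lay within 10 kb of 1.04% (0.648% to 1.65%) of members and of 1.21% of the list. Without raised background 5 of 1564 members overlapped (0.320%, 0.137% to 0.746%), where 0.132% of the list did. The overlap was 3 of 496 members at a fold below 10 (0.605%, 0.206% to 1.76%), 3 of 780 from 10 to 20 (0.385%, 0.131% to 1.12%) and 2 of 364 at 20 or more (0.549%, 0.151% to 1.98%). Over all myotube peaks the shares in the same ranges were 0.218%, 0.194% and 0.449%, each within the interval of the members. The 3 intervals of the members overlapped, so no relation between fold and sharing could be seen. Myoblast peaks had few reads, a median of 8 at the summit, so a site missing from that list may have been occupied below what it could show.

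The 8 shared members differed from each other in background. The strongest was chr3:5860321-5860702, with a fold of 41.67 (184 reads over 4.42) in myotubes and 70.62 (77 reads over 1.09) in myoblasts, and with 484 kb to the nearest other myotube peak. The site at chr8:19784374-19784844 had a fold of 27.07 (84 reads) in myotubes and 10.59 (19 reads) in myoblasts. A further member of chromosome 3, chr3:9249783-9250122, had 17.02 (44 reads) and 20.28 (9 reads). The member chr11:101503340-101503698 had 16.30 (59 reads) in myotubes and 31.55 (14 reads) in myoblasts, and chr10:110663605-110663934 had 11.36 (47 reads) and 12.27 (11 reads). These 5 did not have raised background in myotubes, but the site on chromosome 8 had it in myoblasts (1.79 reads). Their myotube backgrounds, 2.59 to 4.42 reads, were all above the members' median of 2.07. The highest was just under the limit of 4.53 reads.

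The other 3 shared members had raised background in both lists. At chr2:181747503-181747971 the background was 9.31 reads in myotubes and 3.59 in myoblasts, and the folds were 5.05 and 10.04. At chr16:57391524-57391830 the backgrounds were 23.8 and 10.8 reads and the folds 4.46 and 6.13. At chr9:35112805-35113142 the backgrounds were 212 and 180 reads, and the folds of 2.26 and 1.68 were near the lowest of their lists. The fold of 2.26 was the lowest among the members. The summits of the 8 pairs lay 3 to 84 bp apart. The myotube peak was the wider one in each pair, but the members were chosen for a width of 300 bp or more, so nothing can be read from this. The fold was lower in myotubes at 6 of the 8. It was higher at 2, on chromosomes 8 and 9, both with raised background in myoblasts. The sites on chromosomes 2 and 16 also had raised background in myoblasts, with a lower fold in myotubes. The pileup was higher in myotubes at all 8, at 1.31 to 4.89 times the myoblast pileup. The lists were called separately and their total depths are unknown, so these pairs are set side by side with no test.

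**Figure D5:**
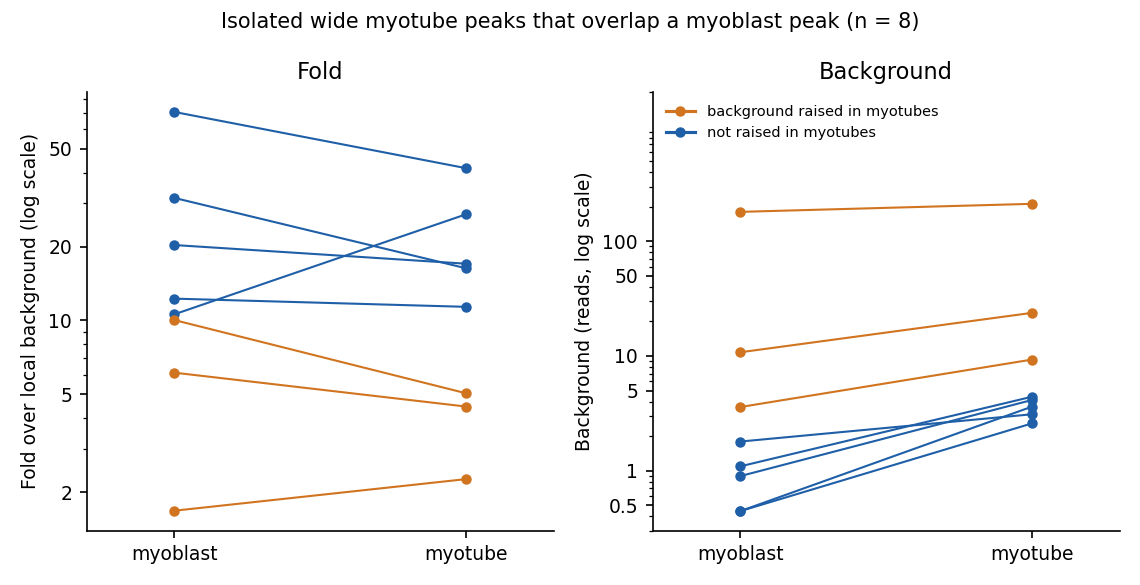
Fold over local background (left, log scale) and background in reads (right, log scale) at the 8 members that overlap a myoblast peak, 1 line per site from the myoblast to the myotube list. Orange lines are the 3 sites with raised background in myotubes; they have the lowest myotube folds, and 6 of the 8 lines fall from left to right in fold.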

How the data were processed

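FoxO3 ChIP-seq peaks were deposited as 1 list per sample, called with MACS2 2.1.0 on mm9 per the submitters' processing notes. Aligner, control library, duplicate handling and threshold: not given in the sources used here. Each list is a narrowPeak table per the file headers, in which the authors gave the fold enrichment (a ratio), the −log10 p-value and −log10 q-value, a score made from the q-value and the summit offset. No read totals accompany them, so total depth is unknown.

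Coordinates were counted from 1, and the summit position is the offset over the width. The whole-number pileup whose Poisson tail at background pileup/fold matched the deposited p-value was taken (tolerance 0.02 on the log10 scale), and was found for 45457 of 45457 myotube and 501 of 501 myoblast peaks. On simulated data 100% of 2000 pileups and 1000 of 1000 planted isolated wide peaks were recovered. The simulated p-values came from the same Poisson formula and the planted peaks met the rule by construction. These values therefore check the calculation alone, not whether the deposited values follow that formula. Background over 3 times the floor (1.51 reads in myotubes, 0.44 in myoblasts) is called raised. Scripts ran in Python 3.11.15 with scipy 1.17.1, numpy 2.4.6, pandas 2.3.3 and matplotlib 3.10.9.

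The members and lists were chosen with earlier results of these data known. Regions named are the 20 members of highest fold, the 5 widest, the 5 most remote, those overlapping a myoblast peak and the strongest of each chromosome. Alternatives were other joining gaps, widths, q-values, chromosomes, background and overlap rules. The gene table and promoter sequences at hand are for another assembly (GRCm38.p6), so gene position, motifs and sequences were not analysed here.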

Additional observations from a re-analysis of the deposited data

How the results depend on the processing

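The number of members depended on the rule: joining at 5000 bp gave 2889, joining at 25000 bp 775, a minimum width of 250 bp 2922 and of 400 bp 535. The median fold was then 12.4 at 25000 bp, 12.1 at 250 bp and 14.9 at 400 bp. Keeping −log10 q-values from 10 up and rebuilding the clusters gave 2362 members with a median fold of 14.7. The share on chromosome X was 3.87% with joining at 25000 bp. The median summit position was 0.52 at 400 bp. The share overlapping a myoblast peak was 0.244% with 50% of both peaks required and stayed at 0.488% with summits within 200 bp. Of 43 alternative values, 11 moved beyond the interval or 1.5 times of the reported value and 32 did not. These include autosomes and X only, which removed no member. The cause was not tested where a filter does not fix it by construction. The overlap with the myoblast list rests on 8 sites, and how far depth limits it was not tested. Gene position and motif shares were not run. No paired analysis was possible because the myoblast and myotube groups hold 1 library each.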
